A study of Mus musculus with 38 samples.

Results

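Trim28-KO neural progenitor cell (NPC) cultures made with 3 different guide RNAs were compared with each other, grouped by the place of the cut along Trim28. The guides g3 and g4 target exons 3 and 4 and are called early here. The guide g13 targets exon 13 and is called late. As g13 is the only late guide, the place of the cut cannot be told apart from other properties of that guide. The members are all 6 Trim28-KO NPC cultures among the 38 samples of the series. They comprise 4 early cultures (g3-A, g3-B, g4-A and g4-B) and 2 late cultures (g13-A and g13-B). The culture numbers in the labels fall into a lower run, series A, and a higher run, series B, with 1 culture of each guide in each, and the series entered each edgeR test as a block. What a series stands for was not given in the sources used here.

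All cultures came from the forebrain of Rosa26-Cas9 knock-in embryos at day 13.5 and grew as a monolayer with EGF and bFGF, so every cell, controls included, carried Cas9. A lentivirus at a multiplicity of infection of 40 brought in 1 guide together with a nuclear H2B-RFP reporter, and RFP+ cells were sorted by FACS 10 days after transduction. The 2 control cultures (lacZ-A and lacZ-B) received a guide against lacZ, a bacterial gene. They entered no early against late contrast and are given only as a background level. Each KO culture was an uncloned pool of edited cells. The paper describes biological triplicates, whereas 2 cultures per guide were available here. Nothing in the labels says that 2 cultures with the same guide came from different animals. The p-values therefore measure the spread between these cultures, which may be technical.

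Trim28 (KAP1) is a scaffold protein. Its N-terminal RING, B-box and coiled-coil region binds the KRAB domain of zinc-finger proteins that sit on DNA, a central motif binds HP1, and the C-terminal PHD finger and bromodomain recruit the H3K9 methyltransferase SETDB1 and the NuRD complex. In NPCs this complex deposits H3K9me3 over endogenous retroviruses (ERVs), among them MMERVK10C and IAP elements, and keeps them silent. A frameshift early in a coding sequence leaves a short N-terminal product or none, whereas one late in it can leave a long product, and a transcript with a premature stop codon upstream of an exon junction can be degraded by nonsense-mediated decay.

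The guides are shown first because their positions define the comparison. The target sites are printed 5′ to 3′ as read from GRCm38, with the PAM, the motif Cas9 needs beside its target, in capitals.
g3: gcactccacacaatagctagTGG
g4: ggtccttgtgagcgttgagcTGG
g13: cgcactggttacacatgaccAGG
All 3 sites lie on the minus strand, in coding exons of Trim28, which is read from the plus strand (transcript Trim28-201, chr7:13024152-13031035, 17 exons). The g3 site is at chr7:13025675-13025697 in exon 3, the g4 site at chr7:13027726-13027748 in exon 4, and the g13 site at chr7:13029921-13029943 in exon 13. On the plus strand, with the site in capitals, the surroundings read as follows.
g3 site: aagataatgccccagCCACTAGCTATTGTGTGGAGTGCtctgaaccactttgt
g4 site: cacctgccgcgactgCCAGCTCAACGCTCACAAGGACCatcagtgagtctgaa
g13 site: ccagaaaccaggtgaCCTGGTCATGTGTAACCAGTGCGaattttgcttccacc

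The expected cut of g3 follows position 13025680 in codon 165 of 835, with 19.7% of the coding sequence before it. The cut of g4 follows position 13027731 in codon 235, with 28.1% before it. The cut of g13 follows position 13029926 in codon 638, with 76.4% before it. The early sites therefore lie in the stretch that encodes the N-terminal region, and the late site leaves most of the coding sequence intact upstream.

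In the reading frame after a gain of 1 base, the first stop codon came 19 bases past the g3 cut in exon 3, 57 bases past the g4 cut in exon 5 and 6 bases past the g13 cut in exon 13. After a loss of 1 base it came 60 bases past the g3 cut in exon 3, 44 bases past the g4 cut in exon 5 and 110 bases past the g13 cut in exon 14. All 6 stops lay upstream of the last exon junction. The distance to that junction was 1819 and 1778 bases for g3, 1570 and 1583 bases for g4, and 412 and 308 bases for g13. These frames were read from the reference transcript, and the alleles present in each culture were not analysed here. For NPCs the paper reports highly efficient editing with each guide, mostly by frameshifts, and almost no Trim28 protein left.

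**Figure D1:**
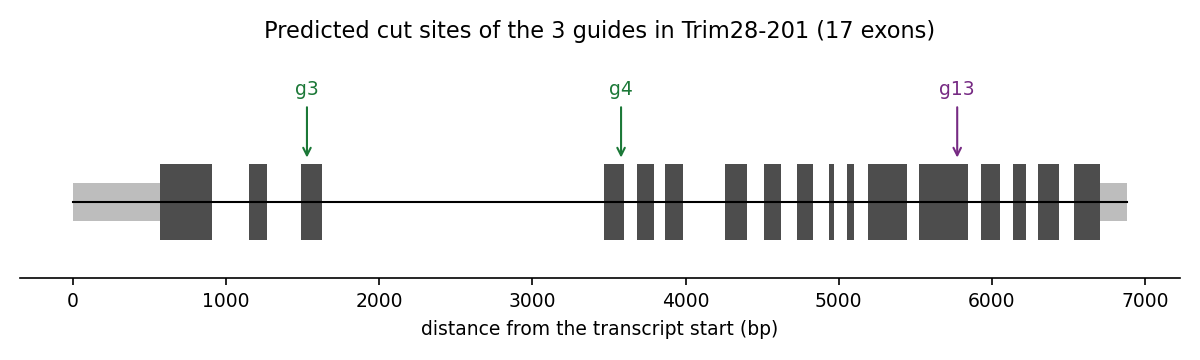
Map of Trim28-201 with its 17 exons as boxes (dark coding, light untranslated) along the distance from the transcript start in bp, and arrows at the 3 predicted cut sites. The cuts of g3 and g4 lie within the first 28.1% of the coding sequence and the cut of g13 lies after 76.4% of it.

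The deposited gene counts totalled between 15962530 and 18985593 in 5 of the 6 KO cultures and 9996885 in g13-B, and counts on transposable element (TE) subfamilies ranged from 413717 in g13-B to 864736 in g3-A. Levels are given as CPM, reads scaled to a common library size, of gene counts for genes and of TE counts for TE subfamilies. They are not divided by length and so are compared between cultures, not between genes. The cultures expressed NPC genes, with all 21 genes of a progenitor list above the low-count filter, as were 12 of 12 astrocyte, 9 of 12 oligodendrocyte, 5 of 10 endothelial and mural, 2 of 10 meningeal and 1 of 10 microglial genes. Differences between series A and B in one guide correlated with those in another, at Pearson r of 0.594 to 0.844 across 9713 genes. These genes are not independent of each other. A pair of cultures stood apart, g3-A and g13-B, and results that rest on them are given with and without them. These are bulk samples, in which fewer cells of a type and less RNA per cell cannot be told apart.

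Culture g3-A differed from the other early cultures in cell cycle and glial genes. It was the lowest of the 6 KO cultures in 21 of 21 proliferation genes, whose summed level was 942 CPM against 2000 to 3188 CPM in the others. It was the highest in 9 of 12 astrocyte genes, whose summed level was 1751 CPM against 812 to 1011 in the others. Among all 16204 genes tested it was the lowest culture in 30.6% and the highest in 32.1%. The median absolute difference between g3-A and its guide replicate g3-B was 0.441 on the log2 scale, more than between g3-A and the late culture of the same series, g13-A, at 0.260. Between the series, g4-A and g4-B lay 0.262 apart, and g13-A and g13-B 0.311. The other guides were likewise nearer to a culture of their own series, g4-A to g13-A at 0.162 and g13-B to g4-B at 0.186. Within series B, g3-B lay 0.12 from g4-B.

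Culture g13-B had the lowest depth. The B2 family of short interspersed elements took 23.8% of its TE counts against 11.98 to 16.07% in the other KO cultures. Processed pseudogenes, intronless copies of other genes whose reads can be shared with their parents, summed to 3989 CPM in it against 2415 to 2826 in the others. The part of depth, proliferation or pseudogene reads in the results that follow was not tested.

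Trim28 itself was lower in every early culture than in either late culture. Its level was 36.9 CPM in g3-A, 39.6 CPM in g3-B, 42.2 CPM in g4-A and 53.3 CPM in g4-B, against 62.3 CPM in g13-A and 73.6 CPM in g13-B. The early and late cultures did not overlap, and all 6 KO cultures lay far below the lacZ cultures at 157 and 204 CPM. Against the lacZ culture of the same series, g3 kept 23.4% and 19.4% of the Trim28 RNA, g4 kept 26.8% and 26.1%, and g13 kept 39.6% and 36.0%, with series A given first in each.

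The means were 43.0 ± 7.22 CPM (SD, n = 4) for early and 67.9 ± 8.00 CPM (SD, n = 2) for late guides. The log2 fold change of early against late was -0.66 (SE 0.164, 95% interval -1.05 to -0.27), with an edgeR quasi-likelihood p of 0.00542 and an adjusted p of 0.999 across all genes, so it was not called. It was -0.65 within series A and -0.67 within series B. The exact two-sided permutation test, which ignores the series, gave p = 0.0667, the smallest that the 15 assignments of 2 late labels allow. With g3-A left out the log2 fold change was -0.62 and the adjusted p 0.0246, which passed the threshold. With g13-B left out it was -0.66 with an unadjusted edgeR p of 0.0543.

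The guides kept the order of their positions in Trim28 RNA, g3 below g4 below g13, in both series, as did 4.06% of all genes. In the model with a level for each guide, the difference between the early guides, g3 against g4, was -0.31 on the log2 scale (edgeR adjusted p = 0.663). That of g4 against g13 was -0.51 and that of g3 against g13 was -0.82, with edgeR adjusted p of 0.977 and 0.813. No neighbours in this order were separated at the adjusted threshold.

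The genes beside Trim28 on chromosome 7 gave smaller differences. Zfp446, a zinc-finger gene upstream, had an early against late log2 fold change of 0.14 (SE 0.241). Chmp2a, an ESCRT-III subunit downstream, had 0.08 (SE 0.130), and Ube2m, a NEDD8-conjugating enzyme beyond it, had -0.04 (SE 0.155). Zbtb45, which lies within the Trim28 gene record on the opposite strand, had -0.36 (SE 0.253), and in all 4 genes the groups overlapped. Slc27a5 had 0 to 13 counts and was not tested.

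**Figure D2:**
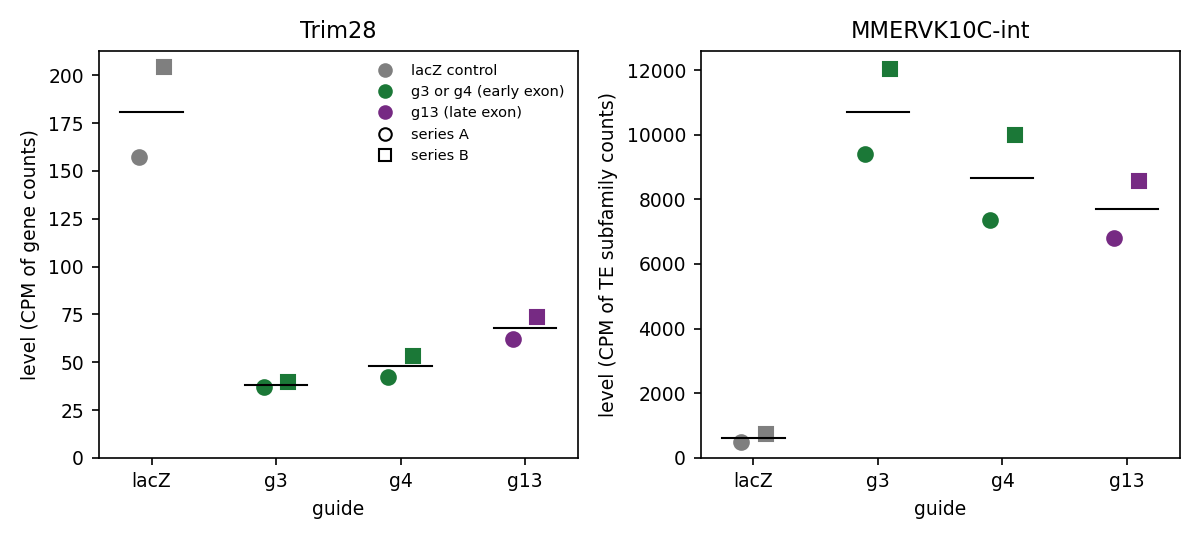
Levels of Trim28 (CPM of gene counts) and MMERVK10C-int (CPM of TE counts) in each NPC culture, with 1 point per culture, circles for series A, squares for series B and a bar at the mean of each guide. In both series Trim28 was ordered g3 below g4 below g13, and MMERVK10C-int in the opposite order.

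MMERVK10C-int, the internal part of a mouse ERVK element, was high with every guide and highest with g3. It stood at 9404 and 12020 CPM of TE counts with g3, at 7347 and 9992 CPM with g4 and at 6818 and 8573 CPM with g13, series A first. The lacZ cultures had 477 and 746 CPM. Early and late cultures overlapped when the series were mixed, since g4-A lay below g13-B, but within each series the order was g3 above g4 above g13, an order that 3.38% of TE subfamilies shared. As a fold of the lacZ culture of the same series, these levels were 19.7 and 16.1 with g3, 15.4 and 13.4 with g4, and 14.3 and 11.5 with g13.

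The early mean was 9692 ± 1920 CPM (SD, n = 4) and the late mean 7695 ± 1240 CPM (SD, n = 2). The log2 fold change of early against late was 0.33 (SE 0.115, 95% interval 0.06 to 0.59), with an unadjusted edgeR p of 0.0213 and an adjusted p of 0.699. The same exact permutation test gave p = 0.267. The difference between the early guides was of similar size. In the model with a level for each guide, g3 against g4 gave 0.31, with an unadjusted edgeR p of 0.00339 and an adjusted p of 0.849, while g4 against g13 gave 0.16 (edgeR adjusted p = 0.958). Without g3-A and g13-B the log2 fold change was 0.12 (edgeR adjusted p = 0.769).

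A list of 13 TE subfamilies was chosen for levels above lacZ on these same samples, so that their level over lacZ is not independent evidence. Across all TE subfamilies, 0 (0%) passed an adjusted p of 0.05 with a log2 fold change beyond 0.5 in the edgeR test of early against late. At an unadjusted p under 0.05, 30 subfamilies (3.76%) were lower and 25 (3.13%) higher with early guides. Of the 13, 2 had an unadjusted p under 0.05, both higher with early guides, MMERVK10C-int and IAPLTR3-int, and the early and late cultures overlapped in all 13, against 6.27% of all subfamilies with early cultures below and 6.14% with early cultures above both late cultures.

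All 13 had fitted log2 fold changes above 0, from 0.01 for RLTR10C to 0.74 for LTR84b. Their median was 0.196 against 0.0262 over all TE subfamilies tested. The plain early mean was nevertheless below the late mean in RLTR10C (936.6 and 972.3 CPM) and IAP1-MM_LTR (506.3 and 507.1 CPM). The list was chosen for levels above lacZ on cultures that were mostly early, which can favour early levels. Nothing is therefore read from the signs, medians and ranks of this paragraph. The late mean lay between the early mean and the lacZ mean in 11 of 13 and beyond the early mean in 2. No share over all subfamilies was taken. In series A, g13 was the lowest of the 3 guides in 9 of 13, whereas it was the lowest in 27.7% of all subfamilies. In series B it was the lowest in 5 of 13, against 44.7% of all subfamilies. Without g3-A the median of the 13 was 0.104, with a range from -0.33 to 0.48. Without g13-B the median was 0.314.

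The members of the list differed in how they varied. IAP1-MM_I-int, the internal part of an IAP element, had 3530 and 2004 CPM with g3, 1105 and 1861 CPM with g4, and 1493 and 1873 CPM with g13, against 87.2 and 252 CPM with lacZ. Here g3-A was the highest culture and the other 5 overlapped. IAPLTR3-int split by series and not by guide, with 65.7, 92.3 and 59.0 CPM in series A and 370, 409 and 286 CPM in series B for g3, g4 and g13, and its log2 fold change was 0.43 (SE 0.180). RLTR10C, a long terminal repeat that flanks MMERVK10C, had 761 to 1137 CPM with early guides and 660 and 1284 CPM with the late guide, so that g13-B was the highest of the 6.

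**Figure D3:**
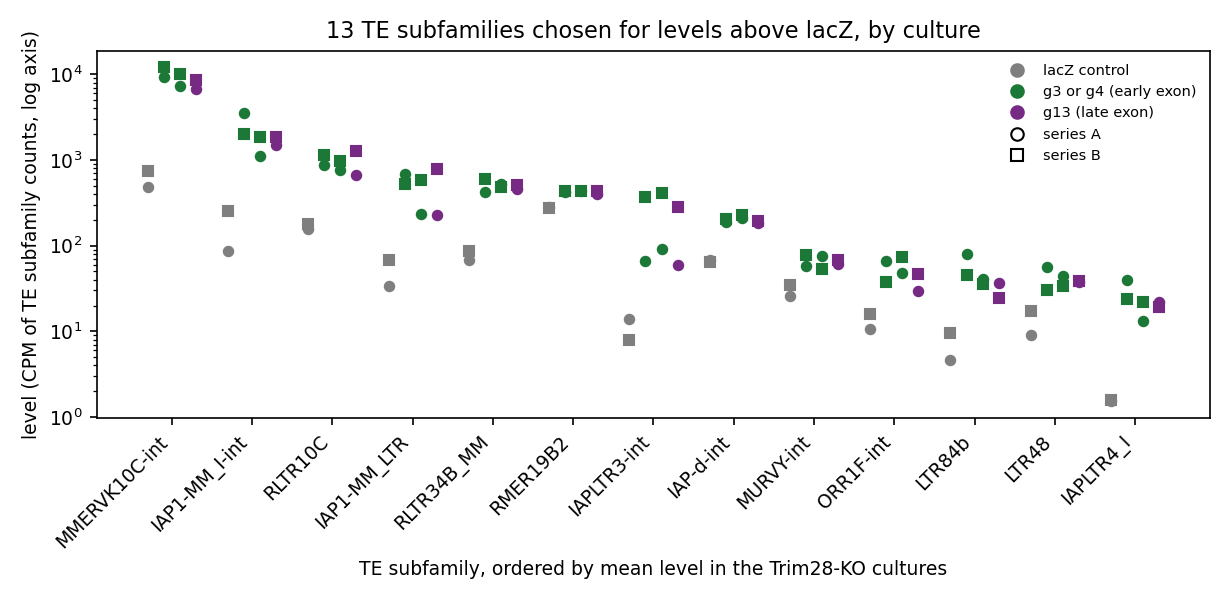
Level of the 13 TE subfamilies chosen for levels above lacZ in each NPC culture (log axis, CPM of TE counts), with 1 point per culture coloured by early, late and lacZ guide, circles for series A and squares for series B. In every subfamily all 6 KO cultures lie above both lacZ cultures, and early and late cultures overlap.

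Outside this list, the subfamilies with the smallest p were not called over the 6 cultures. LTR82A had 312, 317, 300 and 298 CPM with early guides and 241 and 175 CPM with the late guide, a log2 fold change of 0.55 (SE 0.153). RLTR20C2_MM had 346, 428, 415 and 430 CPM with early guides and 494 and 600 CPM with the late guide, a log2 fold change of -0.43 (SE 0.115). In both the groups did not overlap. The lacZ cultures had 465 and 311 CPM of LTR82A, above the late level, and 366 and 540 CPM of RLTR20C2_MM, which reached into both ranges. The others by smallest p were MTEb-int, L1MEg, MMERGLN_LTR and MLTR73, with log2 fold changes from -1.91 to -0.35, and L1Md_A, MMAR1, MurSatRep1 and L1_Mur1, from 0.26 to 0.63. Several rested on g13-B. MTEb-int had 2219 CPM in it against 209 to 315 CPM in the other KO cultures, and without it the log2 fold change was -0.52. Without g13-B those of L1MEg (-0.58), MMERGLN_LTR (-0.35), LTR82A (0.55) and MurSatRep1 (0.27) became -0.11, -0.09, 0.35 and 0.15. With g13-A left out instead, MTEb-int (-2.97), L1MEg (-1.04) and MMERGLN_LTR (-0.63) were called, and MTEb-int was also called with the library sizes of the gene counts (edgeR adjusted p = 0.0127).

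Of 16204 genes tested over the 6 cultures, 0 (0%) were called between early and late guides by edgeR, the smallest adjusted p being 0.999. At an unadjusted p under 0.05, 274 genes (1.69%) were lower and 114 (0.704%) higher with early guides. Early cultures lay below both late cultures in 589 genes (3.63%) and above both in 495 (3.05%). The order g3 above g4 above g13 in both series was held by 4.15% of genes and by 27 TE subfamilies, and the opposite order by 28 TE subfamilies (3.51%). The same model with a level for each guide also called 0 genes in each pair, with 987 genes at an unadjusted p under 0.05 for g3 against g4, 870 for g3 against g13 and 259 for g4 against g13. More genes thus stood at that level between the early guides than between g4 and g13. Without g3-A, by contrast, g3 against g4 gave 9 called genes and g4 against g13 gave 529.

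**Figure D4:**
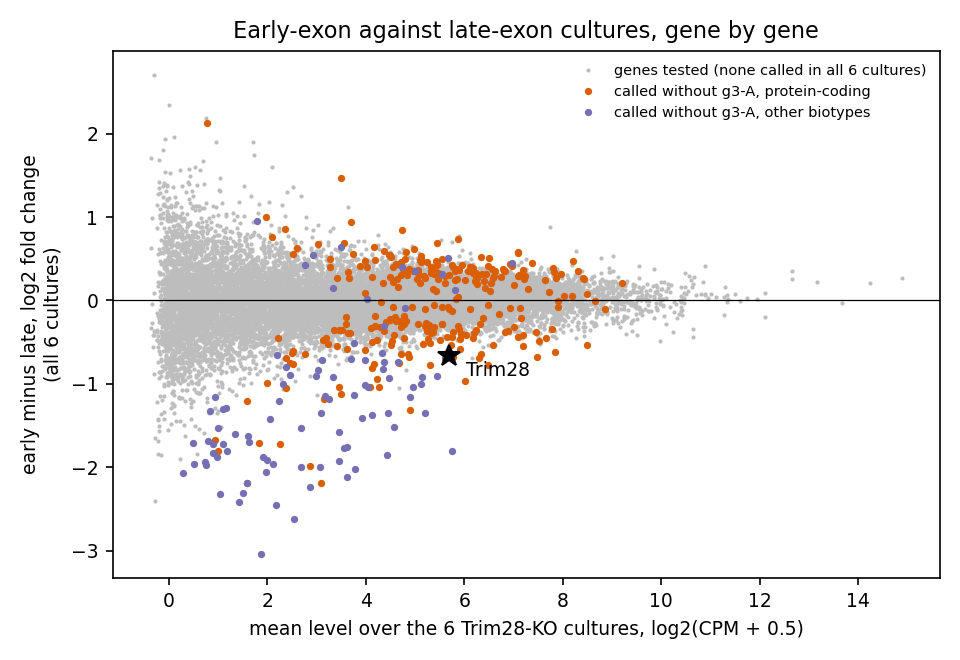
Log2 fold change of early against late guides (y axis) against mean level (x axis, log2 of CPM plus 0.5) over the 6 Trim28-KO cultures, 1 point per gene, with Trim28 as a star and the 370 genes called without g3-A in orange (protein-coding) or purple (other biotypes). No point was called in all 6 cultures, and Trim28 lies at -0.66.

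Olfm2, which encodes a secreted olfactomedin protein, was among the 5 genes of smallest p lower with early guides. It had 11.6, 9.74, 15.3 and 12.7 CPM with early guides, 25.7 and 24.7 CPM with the late guide, and 75.7 and 53.1 CPM with lacZ. The 3 groups did not overlap and stood in the same order as for Trim28, with a log2 fold change of -1.04 (SE 0.198, edgeR adjusted p = 0.999). Cdh19, a cadherin of glial lineages, had 29.0, 37.7, 26.1 and 30.8 CPM with early guides against 15.7 and 18.5 CPM with the late guide. These groups also did not overlap, with a log2 fold change of 0.85 (SE 0.164, edgeR adjusted p = 0.999), but the lacZ cultures, at 22.9 and 30.9 CPM, reached into the early range.

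Rasgrp3, an activator of Ras and Rap, had 0.98 to 2.07 CPM with early guides against 0.40 and 0.29 CPM with the late guide, a log2 fold change of 2.13 at low counts. The immediate-early transcription factor Egr3 (1.47), the NF-kappaB regulator Nfkbiz (0.69) and the mono-ADP-ribosyltransferase Tiparp (0.52) were the other genes of smallest p higher with early guides. In these 3 the early and late cultures overlapped and the series differed. Lower with early guides were 4 unnamed gene models. Gm15966 had 23.5, 26.7, 25.9 and 24.3 CPM against 37.1 and 67.0 CPM, without overlap, and its log2 fold change was -1.01, or -0.59 without g13-B. Gm7324, Gm5586 and Gm9790 were at 0.07 to 2.99 CPM with early guides and had 10.5, 6.15 and 3.84 CPM in g13-B, with log2 fold changes of -1.70, -2.32 and -1.98, or -1.26, -1.25 and -2.42 without it.

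Gm5586 and Gm9790 are processed pseudogenes. Of 541 processed pseudogenes tested, 75 (13.9%) lay lower in every early than in either late culture, against 3.63% of all genes. Culture g13-B was the highest KO culture in 219 of them (40.5%), against 22.3% of all genes. Set against g13-A alone, all early cultures were lower in 22.2% of processed pseudogenes and in 10.2% of all genes. Against g13-B alone these shares were 41.6% and 23.3%. The median log2 fold change of processed pseudogenes was -0.15, and -0.11 with g13-B left out.

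With g3-A left out, 370 of 15951 genes were called by edgeR, 231 (1.45%) lower and 139 (0.871%) higher with early guides. The median standard error was 0.152, against 0.237 with all 6 cultures. These calls held 63 of the 515 processed pseudogenes tested (12.2%, against 2.32% of all genes), 62 of them lower. The part of pseudogene reads in these calls was not tested. With g13-B left out as well, 255 of 16421 were called, 77 (0.469%) lower and 178 (1.08%) higher. Genes called in both fits had the same direction in both. Every culture of the second fit also belonged to the first, so that agreement was largely fixed and nothing is read from it. The second fit kept g13-A as its only late culture, which was assumed to vary like the others. Leaving out each culture in turn was planned, and leaving out any of the other 5 gave 0 calls, whereas leaving out both cultures together was chosen after seeing the data. Of the 370, 77 had early and late cultures that did not overlap when g3-A was put back. Over all genes 3.63% lay below and 3.05% above in this way, but the 370 were selected for a difference among 5 of the same 6 cultures, so nothing is read from that count.

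The genes named next were chosen after their values were seen, as the 8 largest in each direction among protein-coding genes that both fits called and whose 3 remaining early cultures did not overlap the late ones. There were 50 such genes, 20 lower and 30 higher with early guides. In 45 of the 50 (18 and 27), g3-A lay beyond both late cultures, on the side away from the other early cultures, and in 1 it lay with the other early cultures. For most of them the late cultures thus stood between g3-A and the remaining early ones. Over all genes tested, g3-A was the lowest culture in 30.6% and the highest in 32.1%. Both fits left g3-A out, so the choice favours genes in which it goes the other way. Nothing is read from the count.

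Those lower in the 3 remaining early cultures included Hes5, a Notch effector that maintains progenitors, with 1.90 to 4.24 CPM in them, 9.87 and 6.53 CPM with the late guide and 33.5 CPM in g3-A. Its log2 fold change was -1.42 (SE 0.223) without g3-A and -0.36 with it. Ndrg2, which marks astrocytes, had 34.2, 37.0 and 23.7 CPM, 82.1 and 45.4 CPM with the late guide and 522 CPM in g3-A, so that the log2 fold change of -0.88 turned to 0.41 once that culture was included. Rgma, a guidance ligand of the neogenin receptor, Pik3ip1, an inhibitor of PI3K, the branched-chain amino acid enzyme Bckdha, the mitochondrial transporter Slc25a42, Ypel3 and Ankrd34c had the same order, with log2 fold changes from -1.21 to -0.79 without g3-A and from -0.53 to -0.07 with it.

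Those higher in the 3 remaining early cultures included Sema3c, a secreted semaphorin, with 19.6, 17.6 and 20.7 CPM in them, 6.71 and 7.88 CPM with the late guide and 2.35 CPM in g3-A. Its log2 fold change was 1.37 (SE 0.157) without g3-A and 0.94 with it. Itga4, the integrin alpha-4 subunit, had at least 57.3 CPM in each of the 3 against 33.6 and 30.8 CPM, with 4.01 CPM in g3-A, and its log2 fold change was 0.96 without g3-A and 0.47 with it. Ero1l, which oxidises the disulfide isomerase of the endoplasmic reticulum, had 219, 180 and 143 CPM against 106 and 95.2 CPM, with 69.2 CPM in g3-A, and its log2 fold change was 0.85 without g3-A and 0.56 with it. The separation among the 5 cultures was fixed by the way these genes were chosen. Cerkl, Hecw2, AI593442, Tmem56 and the transcription factor Ebf3 followed the same order, with log2 fold changes from 0.74 to 1.18 without g3-A and from 0.41 to 0.68 with it.

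The lists of genes around the Trim28 complex showed no call over the 6 cultures. The 24 corepressor partners had a median log2 fold change of 0.03, from -0.43 to 0.34, beside 0.01 over all genes, and -0.06 without g13-B. By level, its leading members were the HP1 gene Cbx5 at -0.06, the NuRD helicase Chd4 at -0.23 and the histone chaperone Rbbp4 at 0.34. The H3K9 methyltransferase Setdb1 had 107, 122, 112 and 129 CPM with early guides and 106 and 110 CPM with the late guide, overlapping groups with a log2 fold change of 0.12. Other heterochromatin and DNA methylation factors had a median of -0.02 over 23 genes, and the nonsense-mediated decay factors a median of -0.06 over 15.

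Among the heterochromatin factors, 2 of 23 were called without g3-A, both higher with early guides, against 0.871% of all genes: Hells, a chromatin remodeller needed for DNA methylation, and Suv39h2, an H3K9 methyltransferase. Hells had 117, 67.7 and 123 CPM in the 3 remaining early cultures, 44.4 and 76.1 CPM with the late guide and 11.9 CPM in g3-A, so that the groups overlapped and the series differed. Suv39h2 had 30.4, 23.4 and 30.9 CPM against 17.3 and 19.9 CPM, with 10.5 CPM in g3-A. Both were lowest in g3-A, and the cause was not tested.

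Of the 21 genes of the progenitor state, 0 were called over the 6 cultures. The stem cell factor Sox2 had 644, 515, 691 and 435 CPM with early guides and 594 and 398 CPM with the late guide, and was higher in series A with every guide. Nes, the intermediate filament of progenitors, had 260, 1344, 781 and 1585 CPM against 608 and 1075 CPM, lowest in g3-A. Olig1, a bHLH factor of the oligodendrocyte lineage, was the 1 member of 21 with an unadjusted edgeR p under 0.05. Of all genes, 1.69% were lower with early guides at that level. It was also the 1 member with early cultures below both late cultures, against 3.63% of all genes. It had 223, 185, 215 and 208 CPM with early guides, 300 and 266 CPM with the late guide and 403 and 281 CPM with lacZ, groups that did not overlap between early and late, and its log2 fold change was -0.44 (SE 0.130). The list median was 0.03.

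Without g3-A, 3 of the 21 progenitor genes were called lower with early guides, Notch1, Hes5 and the RNA-binding factor Msi1, as were 3 of 12 astrocyte genes, Id3, Aldoc and Clu, against 1.45% of all genes called lower. Notch1, the receptor upstream of Hes5, had 94.7, 132 and 99.3 CPM in the 3 remaining early cultures and 195 and 147 CPM with the late guide, while g3-A had 201 CPM. Of the 21 proliferation genes, 2 were called higher, Bub1 and Ccne2, against 0.871% of all genes. The list median was 0.02 over the 6 cultures, 0.26 without g3-A and -0.26 without g13-B. The proliferation list summed to 942 CPM in g3-A, 3043, 2408 and 3188 CPM in the other early cultures and 2000 and 2453 CPM with the late guide. Early and late cultures thus overlapped, and the part of proliferation in these differences was not tested.

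Of 12 neuronal onset genes tested, Rbfox3, the gene of the NeuN antigen, had an unadjusted edgeR p of 0.00987 with a log2 fold change of -1.45, at levels of 0.23 to 0.59 CPM with early guides and 1.15 and 0.96 CPM with the late guide. It was the 1 member with an unadjusted p under 0.05, against 1.69% of all genes lower at that level. Early cultures lay below both late cultures in 2 of the 12 and above both in 1, against 3.63% and 3.05% of all genes. The list median was 0.04, and -0.13 without g13-B. The p53 target list had a median of -0.03 over 26 genes (0.09 without g13-B), with Cdkn1a at 246, 424, 359 and 458 CPM with early guides and 317 and 626 CPM with the late guide. The interferon-stimulated list had -0.16 over 21 genes, but 0.28 without g13-B, and its summed level was 165 CPM in g3-A and 166 CPM in g13-B against 120 to 133 CPM in the other KO cultures. The 24 imprinted genes had 0.03. None of these lists held a call over the 6 cultures.

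The integrated stress response, the ATF4 programme, split by series. Its 15 genes summed to 3693 CPM in g4-A and 3042 CPM in g13-A, as in lacZ-A at 3566 CPM, and to 1429 to 1561 CPM in the series B KO cultures, with 1609 CPM in lacZ-B. Culture g3-A had 1167 CPM and so did not share the level of its series. The list median of early against late was -0.16.

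**Figure D5:**
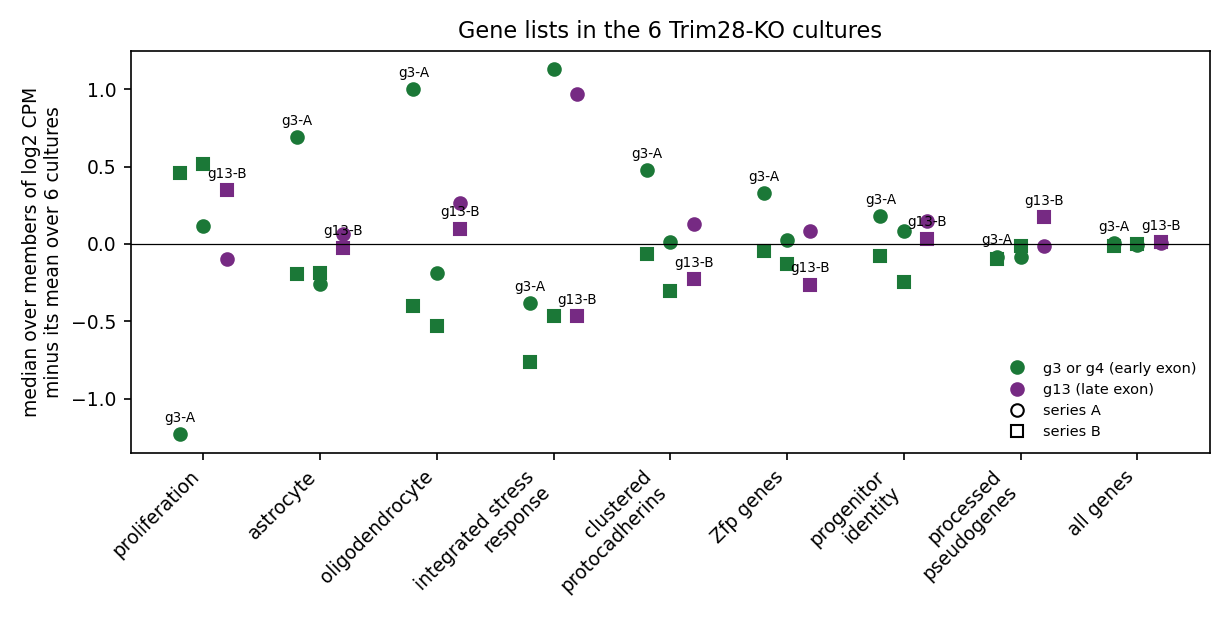
Median log2 level of the genes of each list in each Trim28-KO culture relative to the mean of the 6 KO cultures, with 1 point per culture, green for early and purple for late guides, circles for series A and squares for series B. Culture g3-A is lowest for proliferation at -1.23 and highest for astrocyte genes at 0.69, and g13-B is highest for processed pseudogenes at 0.17.

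Clustered protocadherins and zinc-finger genes, the latter taken by the name Zfp and not by position in a cluster, were mostly highest in g3-A. It was the highest culture in 36 of 46 protocadherins (78.3%) and in 226 of 363 Zfp genes (62.3%), against 32.1% of all genes. The median log2 fold change of early against late was 0.09 for the protocadherins, with no member whose groups were apart, and 0.15 for the Zfp genes. Of the Zfp genes, 10 were higher and 1 lower at an unadjusted p under 0.05, against 0.704% and 1.69% of all genes. In 17 (4.68%) every early culture lay above both late cultures and in 7 (1.93%) below them, against 3.05% and 3.63% of all genes. Culture g13-B was the lowest in 176 of the 363 (48.5%), against 20.3% of all genes. Without g3-A the medians were -0.06 for the protocadherins and 0.06 for the Zfp genes.

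A short list of 9 genes that differed from lacZ, a subset of those that changed and also chosen on these samples, had 8 members tested and 0 called. Fbxw19, an F-box gene, had 15.2, 11.2, 7.50 and 10.3 CPM with early guides and 8.55 and 9.03 CPM with the late guide, and 0 counts in both lacZ cultures. BC048671 had 7.81, 3.14, 1.24 and 2.87 CPM against 2.24 and 2.50 CPM. In both the late cultures lay within the early range. Inhbb, the inhibin beta-B subunit, which was lower than in lacZ, had 9.85, 7.40, 8.47 and 9.02 CPM with early guides, 11.6 and 10.5 CPM with the late guide and 28.8 and 22.1 CPM with lacZ, so that early, late and lacZ did not overlap, with a log2 fold change of -0.34 (SE 0.197). The late mean lay between the early and the lacZ mean in 6 of the 8 and beyond the early mean in 2. These genes were chosen for differing from lacZ and no share over all genes was taken, so nothing is read from that count.

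A search of GRCm38 for sites with an NGG PAM and up to 3 mismatches found 11 sites with 3 mismatches for g3, 1 site with 2 and 2 sites with 3 for g4, and 4 sites with 3 for g13. Only 1 of these lay in an exon, a coding exon of Miga1, a mitochondrial fusion factor, for g4 at chr3:152290438-152290460. Miga1 had 88.7 and 69.8 CPM with g3, 92.3 and 62.3 CPM with g4 and 86.1 and 53.5 CPM with g13, series A first, and followed the series and not the guide. Its early against late log2 fold change was 0.18 (SE 0.137).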

How the data were processed

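The authors aligned strand-specific paired reads with STAR 2.6.0, and deposited raw counts per gene (Subread 1.6.3, featureCounts, per the submitters' processing notes) and counts per TE subfamily from TEtranscripts, which shares multimapping reads among subfamilies. The deposited counts of the 6 KO and 2 lacZ NPC libraries were analysed with edgeR 4.0.16. TMM factors came from all 8 libraries, low features were removed by filterByExpr over the 6 KO libraries, and the quasi-likelihood test used site plus series. TE subfamilies were scaled by TE counts. Called means an adjusted p under 0.05 and an absolute log2 fold change above 0.5. CPM values use the TMM factors. Alternatives were DESeq2 1.42.0, other factors, no filter, no block, a factor for each guide, the TEtranscripts gene counts, and leaving out each culture. The edgeR fit was run on counts simulated without series effects and without a culture that stood apart, so that run does not bear on either. Members and lists were chosen with earlier results of these data known. Named features were Trim28, the members of the lists, the genes beside Trim28 and, since fewer than 5 were called per direction, the 5 with the smallest p in each direction. Columns of individual ERV copies were not used here. Guide sites were matched to GRCm38, and symbols were paired with 54409 of 55298 gene IDs. The series numbers paired the libraries (correlations in the report), and the block was kept. The depth of g13-B gives its values the widest counting error.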

Additional observations from a re-analysis of the deposited data

Results flagged for a closer look

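Of 54 groups of 4 to 6 cultures checked for a culture far from the others, 6 had one, where chance flags about 1 in 20 groups. Among the 6 KO cultures, g13-B stood apart by its total of 9996885 gene counts, by the 23.8% of its TE counts that fell on B2 elements, and by the median level of its processed pseudogenes, which was 0.171 above the mean of the KO cultures on the log2 scale. Culture g3-A stood apart by the median level of proliferation genes, -1.23, and of astrocyte genes, 0.689, both on the same scale. Among the 4 early cultures, g4-A stood apart by its low level of the LINE subfamily L1_Mur1, 571 CPM against 635 to 646 CPM.

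The difference between early and late guides in MTEb-int differed between the series by the interaction term of edgeR, with an adjusted p of 0.00689. Early against late was -0.52 on the log2 scale in series A and -2.94 in series B, where g13-B alone was high.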

How the results depend on the processing

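Early against late, the count of called genes was 0 over the 6 cultures, 88 with no filter on low counts, 0 to 370 with 1 culture left out (370 without g3-A) and 255 without g3-A and g13-B, an alternative chosen after seeing the data. It was 0 without the replicate block, with 184 genes at an unadjusted p under 0.05, and 0 TE subfamilies with 29. For g3 against g13 it was 1 with DESeq2 and 0 to 3088 with 1 culture left out (997 without g3-A, 3088 without g3-B). For g3 against g4 it was 3 with DESeq2, 5 with no filter and 0 to 4654 (9 without g3-A, 4654 without g3-B), and for g4 against g13 it was 1 with no filter and 0 to 529 (529 without g3-A, 472 without g3-B). Where 1 culture of a guide remained, it was assumed to vary like the others. The log2 fold change of Trim28 ranged from -0.76 to -0.57 with 1 culture left out and that of MMERVK10C-int from 0.23 to 0.39, and only Trim28 without g3-A (-0.62) was called. For TE subfamilies, early against late gave 1 call with the library sizes of the gene counts and 0 to 5 with 1 culture left out (5 without g13-A), g3 against g13 gave 1 with DESeq2, 2 with no filter and 0 to 11 (11 without g13-B), g3 against g4 gave 0 to 17 (17 without g13-B) and g4 against g13 gave 0 to 3. At up to 2 mismatches 0 genes held an off-target site. No direction was reversed for Trim28, MMERVK10C-int or the named features of smallest p. Of 290 alternatives for these named features, 268 kept their side of the threshold and 22 passed it. Genes called only in an alternative were not checked in this way. Ndrg2, called at -0.88 without g3-A, stood at 0.41 over the 6 cultures. The cause of these changes was not tested.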
